A study of Caenorhabditis elegans with 8 samples.

Results

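The neuropeptide-like protein (*nlp*) genes of *C. elegans* were followed across 8 strains of whole L4 larvae. A gene was taken as a member when its WormBase symbol is *nlp-* followed by a number and when it had at least 10 counts in 2 or more libraries. The annotation gives 71 such symbols among the 46778 genes counted, and 66 of them passed the count minimum. The other 5, *nlp-22*, *nlp-32*, *nlp-39*, *nlp-60* and *nlp-78*, had at most 11 counts in any library. Of the members, 7 belong to the epidermal group *nlp-27* to *nlp-34*, in which *nlp-32* is the gene under the minimum, and 59 lie outside it. The genes *nlp-38* and *nlp-10* carry other symbols in the annotation used, so they are given apart and are in no count.

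Each strain was sequenced in 2 biological replicates, which gave 16 libraries. All strains carried a *mec-17p*::RFP reporter of the touch receptor neurons (TRNs). The insertion uIs115 was in the wild type (WT), the single mutants *mec-7(u278)*, *mec-3(unk206)* and *mbl-1(tm1563)*, and the double mutants *mec-7(u278) mbl-1(tm1563)*, in the text the *mec-7* double mutant, and *mbl-1(tm1563); mec-3(unk206)*. A second insertion, uIs134, was in *mec-3(syb8382)* and *mec-3(u184)*, so that for these strains allele and insertion cannot be told apart when they are set against the others. MBL-1 is the worm Muscleblind splicing factor, and *tm1563* is a deletion used as the loss-of-function allele. The β-tubulin gene *mec-7* is used by TRNs, and its neomorphic allele *u278* causes them to grow an extra neurite. MEC-3 is the LIM homeodomain factor of TRN fate, for which *u184* is a loss-of-function allele. The *syb8382* deletion removes exon 2 and leaves the short *mec-3d* form, and *unk206* fuses exons 1 to 3 so that the long *mec-3a* form is made. The worms were synchronised by bleaching, hatched without food, and then fed OP50 bacteria until harvest.

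Neuropeptide precursors are cut by proprotein convertases, trimmed by carboxypeptidases, amidated, stored in dense-core vesicles and released to act mostly on G protein-coupled receptors. The *nlp* name covers precursors that are neither FMRFamide-like nor insulin-like, and not all of them are neuronal. The genes *nlp-27* to *nlp-34* are expressed mainly in the epidermis, where they code for glycine-rich antimicrobial peptides. *nlp-29*, the best studied of them, is induced by fungal infection and by wounding through a p38 MAP kinase pathway.

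The gene counts summed to between 22296336 and 23180583 per library, and members took between 0.0956% and 0.184% of them. The libraries of WT, *mbl-1(tm1563)*, *mec-7(u278)* and their double mutant did not keep the strand of the RNA, with 50.8% to 51.3% of stranded counts on the second strand. Those of the 4 *mec-3* strains kept it, with 97.7% to 98.4%. The kind of library and the *mec-3* strains cannot be told apart, so levels are given side by side across this border without a test. The 13 pan-neuronal markers were found in all libraries, and their summed level lay between 437 and 788 CPM (read counts per gene after scaling every library to one size, with TMM factors from the 16 libraries). Lists of genes whose levels depend on developmental stage differed widely between libraries: the summed vitellogenins ranged from 394 CPM in *mbl-1(tm1563)* replicate 2 to 55165 CPM in *mec-3(syb8382)* replicate 2, the summed major sperm protein genes from 14 to 6270 CPM, and 10 epidermal markers, mostly cuticle collagens, from 153 CPM in the *mec-7* double mutant replicate 1 to 8523 CPM in WT replicate 1. None of those 10 was at 0 in any library, and the lowest was *dpy-3* at 1.48 CPM.

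Levels of the members spread over a wide range. Per kilobase of exon, the mean over the 16 libraries was 0.435 CPM per kb at the lowest, 10.6 at the median and 616 at the highest. The 10 members with the highest mean per kb were *nlp-24*, *nlp-36*, *nlp-40*, *nlp-20*, *nlp-27*, *nlp-12*, *nlp-33*, *nlp-29*, *nlp-17* and *nlp-28*, and they held 72.3% of the summed CPM of the members. *nlp-24*, a precursor of opioid-like peptides, led with 616 CPM per kb and ranged over 3.3-fold, from 109 CPM in WT replicate 1 to 358 CPM in *mec-7(u278)* replicate 1. *nlp-36* followed with 417 CPM per kb and a range of 3.13-fold. *nlp-40*, which the intestine secretes to time the defecation cycle, had 349 CPM per kb. Exons of *nlp-24*, *nlp-36* and *nlp-17* overlap a gene on the other strand, so their counts are less certain. The unstranded count was used for all 16 libraries, so this also holds where the strand was kept. In all, 12 members share exon sequence with another gene, among them *nlp-26*. At the low end, 14 members had a mean under 1 CPM, and 47 of the 66 had at least 10 counts in every library. Members lie on all chromosomes, with 18 each on V and X, 9 each on II and IV, and 6 each on I and III.

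**Figure D1:**
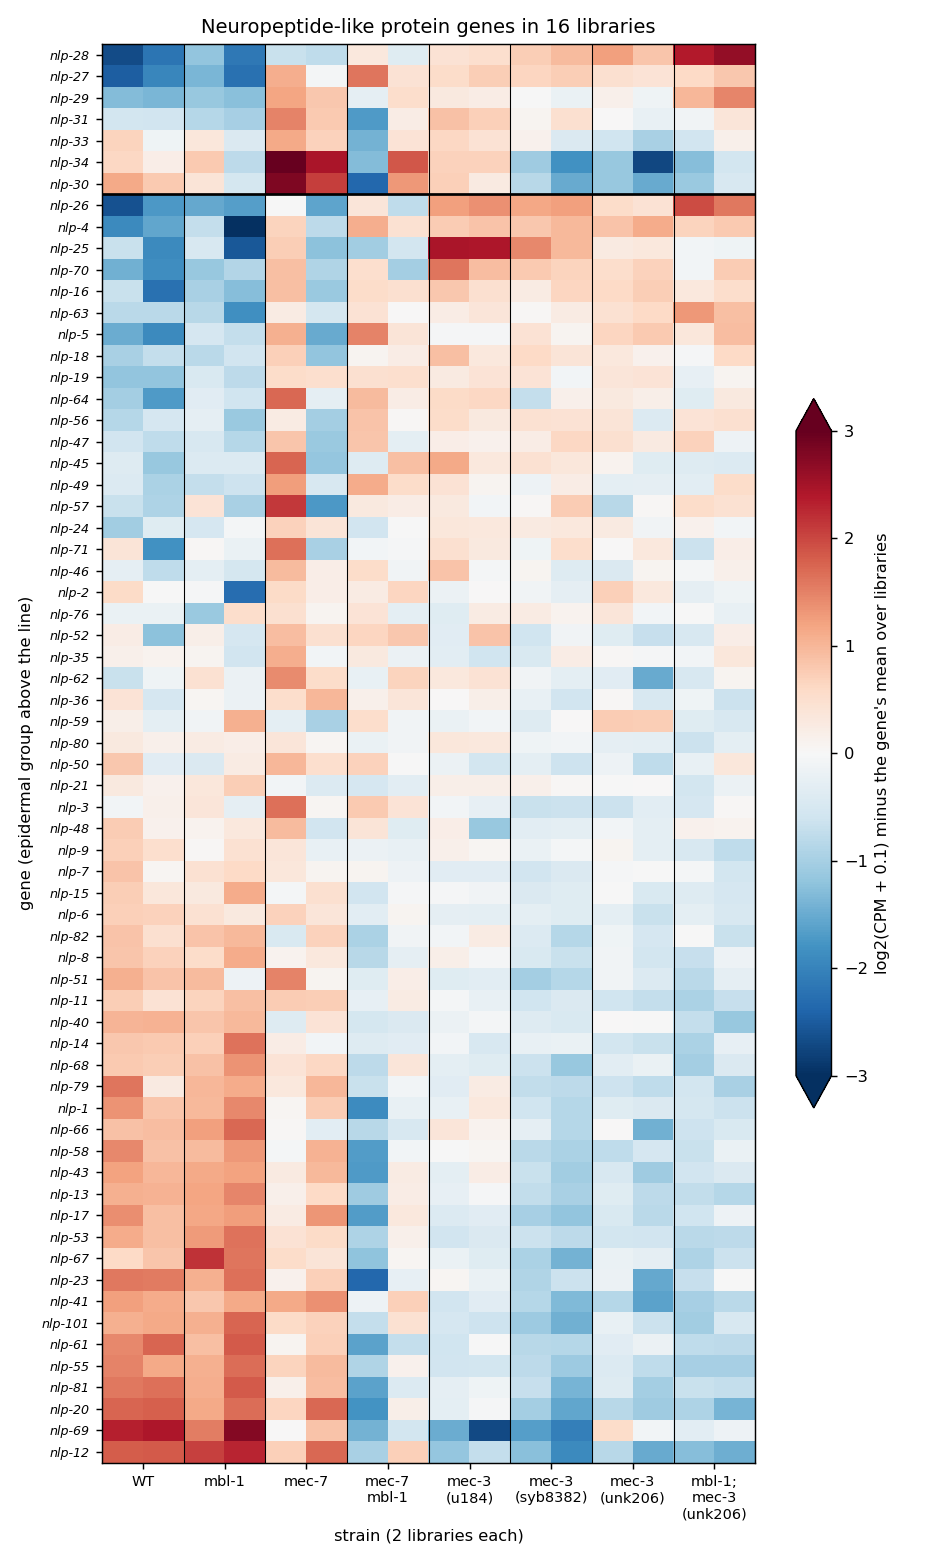
Level of the 66 members in each of the 16 libraries (columns, 2 per strain), as log2(CPM + 0.1) minus the mean of the gene over all libraries, red above and blue below that mean. The 7 epidermal genes stand above the black line; *nlp-12*, *nlp-20* and *nlp-69* at the bottom are high in WT and *mbl-1(tm1563)* and low in the *mec-3* strains, and *nlp-28*, *nlp-27* and *nlp-26* show the opposite order.

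Neither WT nor any mutant had the highest level of most members. The mean was highest in *mbl-1(tm1563)* for 18 members, in *mec-7(u278)* for 18 and in WT for 12, and it was lowest in WT for 19 and in *mec-3(syb8382)* for 18. For 27 members (40.9%) all 4 libraries of WT and *mbl-1(tm1563)* lay above all 8 libraries of the *mec-3* strains, where 28.1% of all 16153 genes with the count minimum met did so. For 15 members (22.7%) they lay below, where 28.5% of all genes did so. The libraries of *mec-7(u278)* and the *mec-7* double mutant were left out of this split. *nlp-12*, a cholecystokinin-like peptide gene of the DVA neuron, was among the first, with 116 and 119 CPM in WT, 136 and 160 CPM in *mbl-1(tm1563)*, and between 8.69 and 20.2 CPM in the *mec-3* strains. *nlp-20* was at 252 and 259 CPM in WT and between 25 and 72.6 CPM in the *mec-3* strains. In *mec-7(u278)* *nlp-12* was at 54.4 and 109 CPM and *nlp-20* at 117 and 245 CPM. In the *mec-7* double mutant *nlp-12* was at 16.8 and 54 CPM and *nlp-20* at 21.4 and 84.6 CPM. *nlp-40* was at 454 and 462 CPM in WT and between 102 and 228 CPM in the *mec-3* strains. Among the second were *nlp-27*, *nlp-28*, *nlp-29* and *nlp-31* of the epidermal group and *nlp-26*, which was at 1.7 and 3.24 CPM in WT and between 14.6 and 42.8 CPM in the *mec-3* strains. Beside these levels, the summed vitellogenins were between 394 and 17183 CPM in WT and *mbl-1(tm1563)* and between 18768 and 55165 CPM in the *mec-3* strains. They were at 19114 and 12082 CPM in *mec-7(u278)* and at 36024 and 22833 CPM in the *mec-7* double mutant. Pan-neuronal markers summed to between 668 and 788 CPM in WT and *mbl-1(tm1563)* and between 437 and 510 CPM in the *mec-3* strains. Peptide processing genes summed to between 1026 and 1382 CPM against 513 to 714 CPM, and dense-core vesicle genes to between 757 and 1061 CPM against 344 to 472 CPM. The summed body muscle markers overlapped. The part of the vitellogenins and of these other lists in the levels was not tested. In RNA from whole worms, fewer cells that express a gene and less RNA per cell cannot be told apart.

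The epidermal group held 6 genes side by side and 1 apart. *nlp-34*, *nlp-31*, *nlp-30*, *nlp-29*, *nlp-28* and *nlp-27* lie in this order within 10.9 kb on chromosome V (WBcel235, V:3978825-3989770), *nlp-34* on the minus strand and the others on the plus strand, and *nlp-33* lies on the same chromosome at V:11147346-11147737. Their summed level was 102 and 78.1 CPM in WT, 97.6 and 58.1 CPM in *mbl-1(tm1563)*, 352 and 214 CPM in *mec-7(u278)* alone, and 193 and 191 CPM when both mutations were present. In the *mec-3* strains it was 199 and 196 CPM in *mec-3(u184)*, 165 and 161 CPM in *mec-3(syb8382)*, 151 and 129 CPM in *mec-3(unk206)*, and 205 and 265 CPM when *mbl-1* was lost there too. The group was thus lowest in WT and *mbl-1(tm1563)*, and the 2 libraries of *mec-7(u278)* were above all others except replicate 2 of *mbl-1(tm1563); mec-3(unk206)*. The genes of the group did not share 1 order of strains. *nlp-28* ranged over 42.6-fold, from 1.7 CPM in WT replicate 1 to 72.6 CPM in *mbl-1(tm1563); mec-3(unk206)* replicate 2. *nlp-30* and *nlp-34* were highest in *mec-7(u278)* replicate 1, at 54.9 and 44 CPM, and *nlp-27* in the *mec-7* double mutant replicate 1, at 145 CPM.

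**Figure D2:**
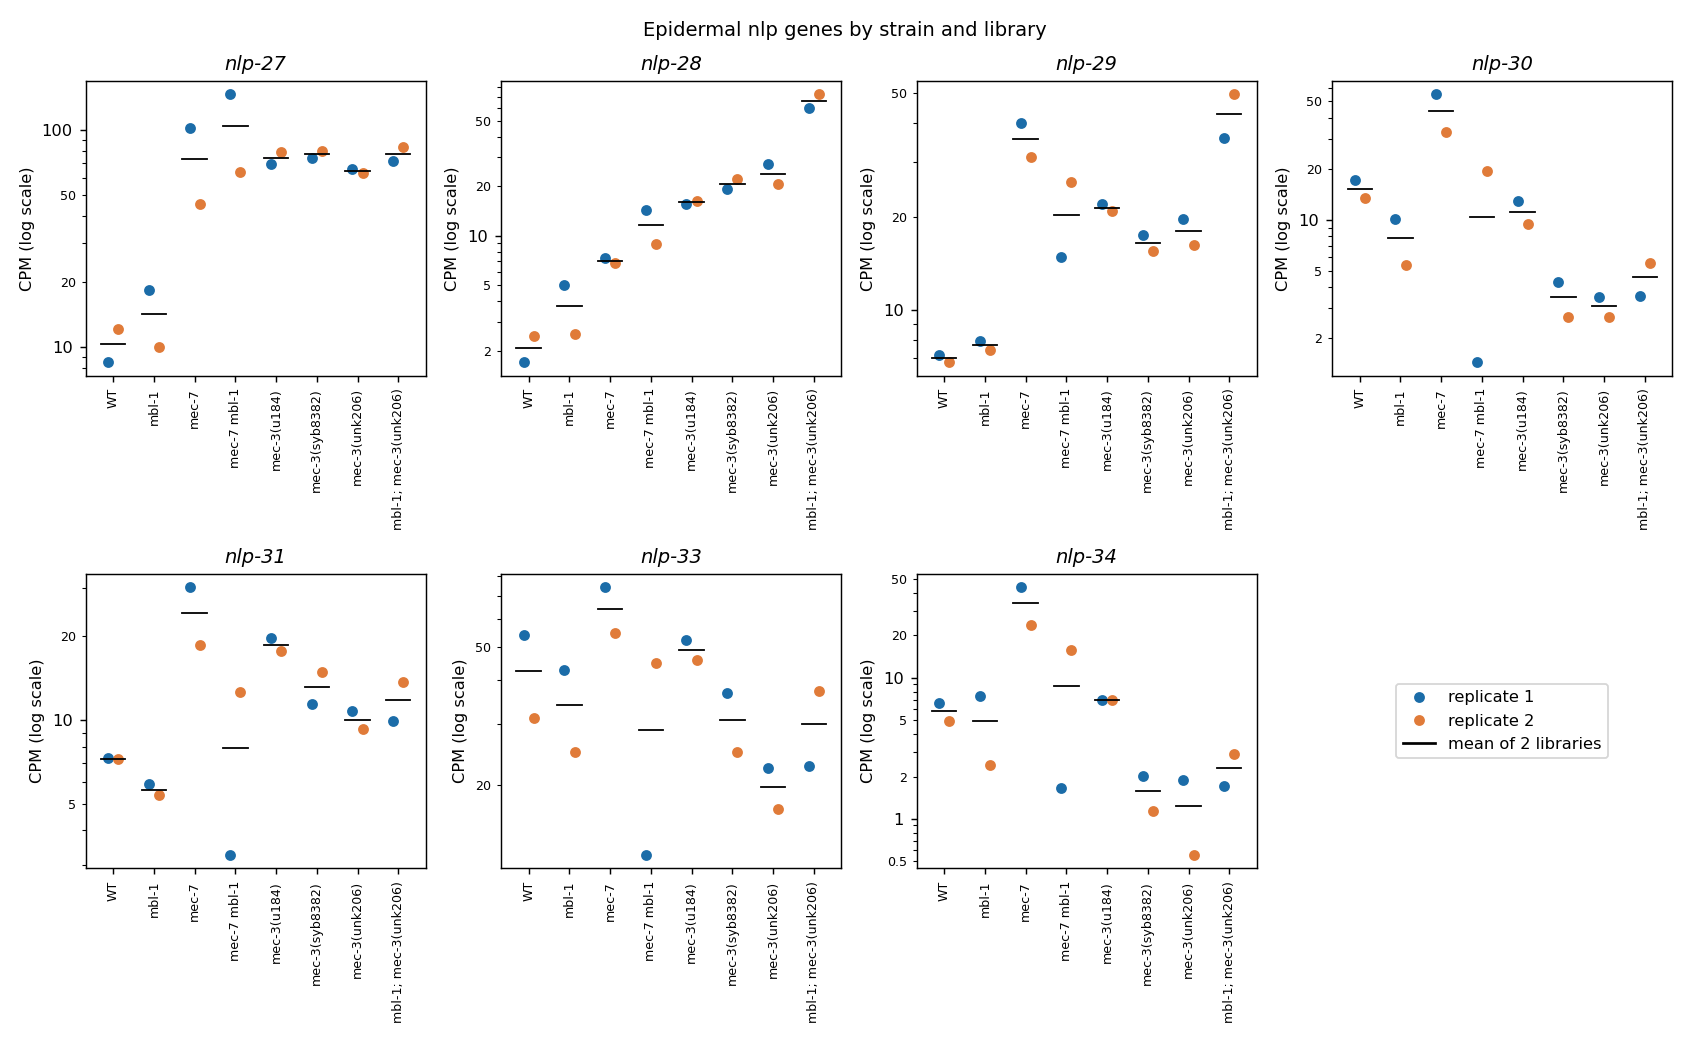
CPM on a log scale of the 7 epidermal genes in each library, by strain, with a line at the mean of the 2 libraries. *nlp-28* and *nlp-29* have their highest mean with both *mbl-1(tm1563)* and *mec-3(unk206)*, and *nlp-30*, *nlp-31*, *nlp-33* and *nlp-34* in *mec-7(u278)*; *nlp-30* differs 13.4-fold between the 2 libraries of the *mec-7* double mutant.

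Strains were compared in pairs with the quasi-likelihood test of edgeR, with Benjamini-Hochberg adjustment over all genes tested, and a gene was taken to rise or fall at an adjusted p under 0.05. Values of log2 fold change are followed by their standard error (SE), with n = 2 libraries per strain. With 2 libraries against 2, an exact permutation test of a single gene cannot give a p below 0.33, so each call rests on the spread shared over genes.

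The first question was whether loss of *mbl-1* changed *nlp* levels in otherwise wild-type worms. None of the 56 members tested passed the threshold between *mbl-1(tm1563)* and WT, and the background was the same, with 0% of 14493 genes called by edgeR. The unadjusted p was under 0.05 for 161 genes and 1 member, and DESeq2 called 20 genes and 0 members. The member was *nlp-67*, at 6.09 and 7.21 CPM in WT and 18.1 and 12.2 CPM in *mbl-1(tm1563)*. Its libraries did not overlap, and its log2 fold change was 1.20 ± 0.29 (SE), with an adjusted p of 0.9999 from edgeR. *nlp-30* was next, at 17.2 and 13.4 CPM in WT and 10.1 and 5.4 CPM in the mutant, a log2 fold change of -0.99 ± 0.38. *nlp-12* had a log2 fold change of 0.37 ± 0.21 without overlap. The median of the members was 0.06, beside -0.03 over all genes tested, and that of the epidermal group was -0.27. Without overlap 11 of the 56 members tested were higher and 8 of 56 were lower, beside 7.99% and 13.6% of all genes tested. Stage-dependent lists differed widely between replicates here. The summed major sperm protein genes were at 228 and 960 CPM in WT and 1561 and 14 CPM in *mbl-1(tm1563)*. The summed vitellogenins were at 5622 and 17183 CPM in WT and 14935 and 394 CPM in *mbl-1(tm1563)*. The part of this spread in the result was not tested. *nlp-69* was at 13.3 and 14.2 CPM in WT and at 7.67 and 17.9 CPM in *mbl-1(tm1563)*, and its log2 fold change of -0.04 ± 0.53 took either sign when 1 library was left out. *nlp-38*, a myoinhibitory peptide gene, was at 9.86 and 7.67 CPM in WT and 5.62 and 7.42 CPM in the mutant. Its log2 fold change was -0.40 ± 0.39, and *nlp-10* had one of -0.92 ± 0.37, and both missed the threshold. The authors reported changed splicing of *nlp-38* on loss of *mbl-1*, with its *b* isoform lower. Counts per gene, as used here, cannot show such a change.

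The *mec-7(u278)* mutant was then set against the same WT libraries as above, so the values of the comparisons are not independent. By edgeR's test 0 of 58 members changed, with 0.0204% of 14710 genes called (0.0136% higher and 0.0068% lower), but 12 members and 1037 genes had an unadjusted p under 0.05 and DESeq2 called 5 members and 92 genes. The 3 members with the lowest p were in the epidermal group, of which 6 of 7 genes had an unadjusted p under 0.05 and whose median log2 fold change was 1.76, beside -0.27 for the other members and 0.00 over all genes tested. *nlp-27* went from 8.52 and 12.1 CPM in WT to 102 and 45.7 CPM in *mec-7(u278)*. *nlp-29* was at 7.18 and 6.8 CPM in WT and 40.1 and 31.1 CPM in the mutant. *nlp-34* was at 6.66 and 4.94 CPM in WT and 44 and 23.8 CPM in the mutant. None of these 3 genes overlapped between the strains. Their log2 fold changes were 2.83 ± 0.45 for *nlp-27*, 2.34 ± 0.32 for *nlp-29* and 2.53 ± 0.43 for *nlp-34*, each with an adjusted p of 0.562 from edgeR. In the group, *nlp-28*, *nlp-31* and *nlp-30* followed with log2 fold changes of 1.76 ± 0.47, 1.74 ± 0.37 and 1.51 ± 0.37, and *nlp-33*, outside the cluster, had 0.58 ± 0.38. DESeq2 called *nlp-27*, *nlp-29*, *nlp-31* and *nlp-34* as higher and *nlp-69* as lower.

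Outside the group, *nlp-69* was at 13.3 and 14.2 CPM in WT and 2.59 and 4.73 CPM in *mec-7(u278)*, without overlap, a log2 fold change of -1.91 ± 0.46. *nlp-64*, chosen after its values were seen, was at 0.31 and 0.154 CPM in WT and 2.63 and 0.585 CPM in the mutant. These are only 6 and 3 counts against 65 and 12. The log2 fold change of *nlp-64*, 2.74 ± 0.95, was second in size to that of *nlp-27* among the members but rests on these low counts. *nlp-24* had a log2 fold change of 1.21 ± 0.34 and *nlp-40* one of -0.95 ± 0.39, and neither overlapped between the strains. Without overlap 15 of the 58 members tested were higher in *mec-7(u278)* and 20 of 58 were lower, beside 22.2% and 24.7% of all genes tested. The calls depended on the filter: without a filter on low counts edgeR called 6 members (*nlp-27*, *nlp-29*, *nlp-30*, *nlp-31*, *nlp-34* and *nlp-69*) and 485 genes, and without WT replicate 2 it called *nlp-27* and 193 genes. The epidermal markers lay on the other side from the epidermal *nlp* genes here, with 0 of 10 called by edgeR, 1 at an unadjusted p under 0.05, a median log2 fold change of -1.16 and a sum of 8523 and 4707 CPM in WT and 2228 and 3991 CPM in *mec-7(u278)*. The major sperm protein genes had a median of 1.82 and the TRN markers one of -1.18, and the part of these lists in the result was not tested.

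In the *mec-7(u278)* background, with the *mec-7(u278)* libraries shared with the last comparison, loss of *mbl-1* gave no call by edgeR, with 0 of 64 members and 0% of 15221 genes. The unadjusted p was under 0.05 for 560 genes and 1 member, *nlp-61*, and DESeq2 called 16 genes and 0 members. Most members had a negative log2 fold change in the *mec-7* double mutant without passing the test. The median log2 fold change was -0.69, beside -0.05 over all genes tested. Without overlap 31 of the 64 members tested were lower and 2 of 64 were higher, beside 21.5% and 24.6% of all genes. *nlp-61* went from 5.19 and 8.04 CPM in *mec-7(u278)* to 1.52 and 2.92 CPM in the *mec-7* double mutant, a log2 fold change of -1.61 ± 0.61. *nlp-20* was at 117 and 245 CPM against 21.4 and 84.6 CPM, or -1.81 ± 0.75 on the log2 scale. *nlp-24* was at 358 and 291 CPM against 149 and 221 CPM, or -0.84 ± 0.36 on the log2 scale. The libraries of these 3 genes did not overlap, and each had an adjusted p of 0.659 from edgeR.

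The 2 libraries of the double mutant stood far apart from each other. *nlp-30* was at 1.44 CPM in replicate 1 and 19.4 CPM in replicate 2, a 13.4-fold difference, *nlp-34* at 1.67 and 15.7 CPM, and *nlp-31* at 3.27 and 12.6 CPM. Of the 59 members with 10 counts in both libraries, 22 (37.3%) differed more than 2-fold between them, beside 21.9% of all genes with 10 counts in both. In *mec-7(u278)* 18 of 57 (31.6%) did, beside 27.6% of all genes, and in *mec-3(u184)* 0 did, beside 1.13%. In replicate 1 of the double mutant the 10 epidermal markers summed to 153 CPM and in replicate 2 to 2813 CPM. Without replicate 2, edgeR called 349 genes and 3 members, *nlp-20*, *nlp-30* and *nlp-34*, all lower, with the lone library taken to vary like the *mec-7(u278)* libraries. *nlp-27* and *nlp-28* went the other way from the rest of their cluster, with log2 fold changes of 0.48 and 0.70, and *nlp-29*, *nlp-31* and *nlp-33* had -0.85, -1.65 and -1.20, and all missed the threshold. Without replicate 1 of the double mutant the value of *nlp-27* was -0.24. *nlp-69* went from 2.59 and 4.73 CPM in *mec-7(u278)* to 0.911 and 1.72 CPM in the double mutant, a log2 fold change of -1.51 ± 0.66, and *nlp-38* from 6.12 and 6.04 CPM to 1.94 and 3.05 CPM, one of -1.32 ± 0.53. The epidermal markers had a median of -1.13, the intestinal markers of -0.92, the TRN markers of -1.27, the pan-neuronal markers of -0.40 and the major sperm protein genes of 1.19, with none called, and their part was not tested.

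**Figure D3:**
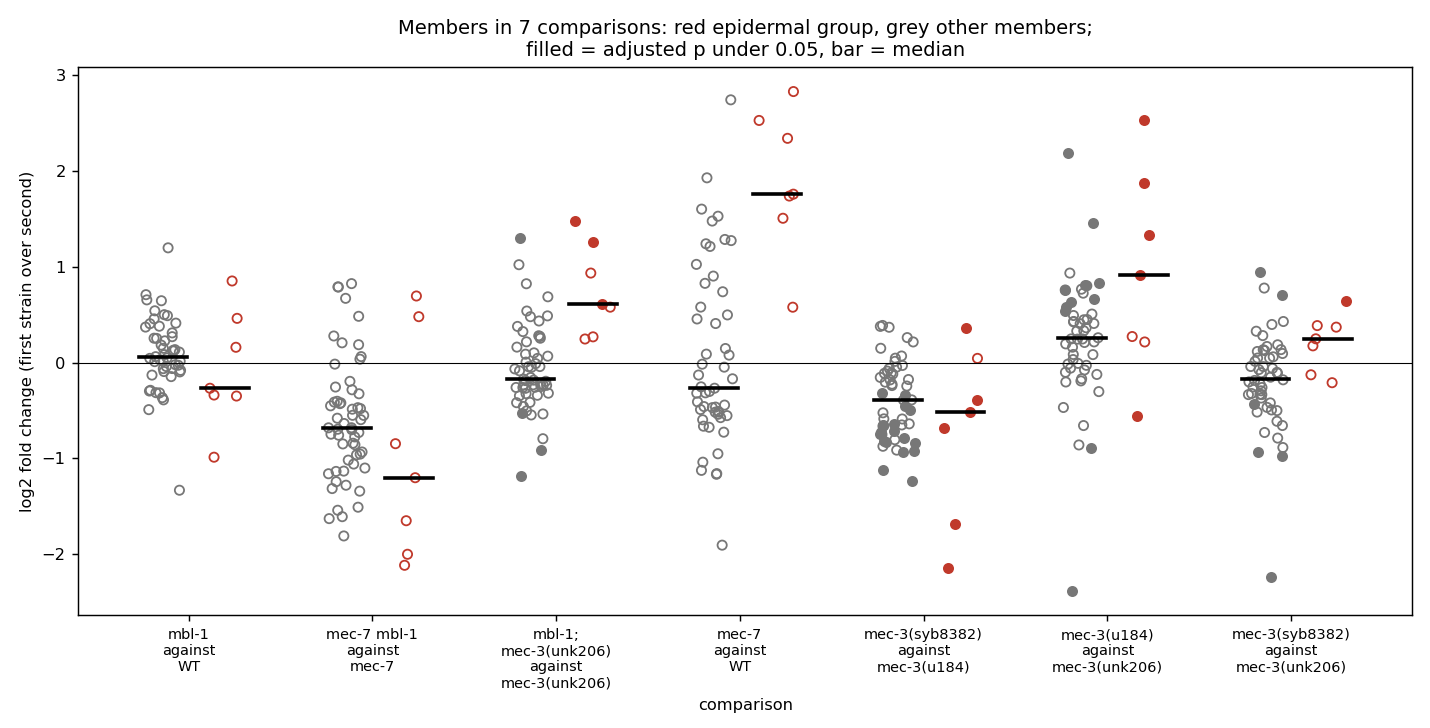
log2 fold change of every member tested in the 7 comparisons (x axis), in red for the epidermal group and in grey for the other members, filled where the adjusted p was under 0.05, with a bar at the median of each set. The red points of *mec-7(u278)* against WT have their median at 1.76 with none filled, and the filled points are in the 4 comparisons among *mec-3* strains.

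The median member differed 1.12-fold to 1.32-fold between the replicates of a *mec-3* strain, 1.2-fold in WT, 1.38-fold in *mbl-1(tm1563)*, and 1.61-fold and 1.72-fold in the *mec-7* strains, and calls were made in all 4 comparisons among *mec-3* strains. None of these member calls was kept in 1 fit of all 16 libraries, which shares 1 estimate of spread and also changes the filter and the scaling. Loss of *mbl-1* with *mec-3(unk206)*, the strain that makes the long form, gave 4 members that rose and 3 that fell of 62 tested, which is 11.3%, beside 36.4% of 15042 genes, with 14.4% higher and 22% lower. Without overlap 10 of the 62 members tested were higher and 17 of 62 were lower, beside 32.9% and 36.3% of all genes. *nlp-28* was at 27.3 and 20.6 CPM in *mec-3(unk206)* and 60.1 and 72.6 CPM in *mbl-1(tm1563); mec-3(unk206)*. It rose with a log2 fold change of 1.48 ± 0.17 (adjusted p = 3.98e-06, edgeR). *nlp-29* rose from 19.7 and 16.2 CPM to 35.8 and 49.5 CPM, with a log2 fold change of 1.26 ± 0.18 (adjusted p = 3.51e-05, edgeR). *nlp-26* rose from 16.1 and 14.6 CPM to 42.8 and 32.9 CPM, with a log2 fold change of 1.30 ± 0.17. *nlp-33* was the fourth, with 22.4 and 17.1 CPM against 22.6 and 37.4 CPM and a log2 fold change of 0.61 ± 0.21 (adjusted p = 0.0268, edgeR), and it lost its call without *mec-3(unk206)* replicate 2 or *mbl-1(tm1563); mec-3(unk206)* replicate 2, where the value was 0.19 at the lowest. It was not called either without a filter on low counts. Without *mbl-1(tm1563); mec-3(unk206)* replicate 1, 11 members were called beside 4306 genes, in place of 7 members and 5478 genes, with *nlp-30*, *nlp-34*, *nlp-49* and *nlp-50* added.

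Of the members that fell, *nlp-59* went from 6.87 and 6.72 CPM to 3.1 and 2.87 CPM, which is -1.19 ± 0.21 on the log2 scale (adjusted p = 0.000338, edgeR). *nlp-40* went from 228 and 222 CPM to 137 and 102 CPM, which is -0.92 ± 0.16 on the log2 scale (adjusted p = 0.000195, edgeR). *nlp-9* stood at the threshold, with -0.52 ± 0.20 on the log2 scale (adjusted p = 0.0492, edgeR), and it was called under 1 of 7 other settings and in 2 of 4 fits without 1 library. None of these groups of libraries overlapped. The epidermal group was 3 of 7 higher and 0 lower, with a median of 0.61. Its remaining genes, *nlp-34* at 0.93, *nlp-30* at 0.58, *nlp-27* at 0.27 and *nlp-31* at 0.25, missed the threshold. *nlp-69* was at 3.8 and 2.42 CPM against 2.05 and 2.3 CPM, or -0.50 ± 0.27 on the log2 scale (adjusted p = 0.146, edgeR).

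Epidermal and intestinal markers changed in the same comparison. Of the 10 epidermal markers 8 rose and 0 fell, with a median of 0.67, and all 5 intestinal markers fell, with a median of -1.19. *nlp-40* is the member known for intestinal expression, and *nlp-28* and *nlp-29* for epidermal expression; the part of these lists in their changes was not tested. The caenacins, another family of epidermal antimicrobial peptides, had 3 of 4 tested genes higher and 0 lower, led by *cnc-3* with 1.13 ± 0.32. Of 13 genes of the epidermal immune pathway none rose and 4 fell, among them *tir-1*, the SARM adaptor upstream of the p38 cascade, with -0.86 ± 0.15. Of 12 peptide receptors 2 fell, *sprr-2*, a receptor of myoinhibitory peptides, with -1.02 ± 0.25 and *ckr-2*, the receptor of NLP-12, with -0.72 ± 0.25. Of 11 peptide processing genes 2 fell, *kpc-1*, a proprotein convertase, with -0.71 and *aex-5*, another convertase, with -0.47. Beside these lists, 14.4% of all genes tested rose and 22% fell in this comparison.

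Whether the effect of *mbl-1* differed between backgrounds was tested as an interaction term over 8 libraries. By edgeR no member passed for either background, with 0% of 15602 genes called between WT and *mec-7(u278)* and 0.0192% of 15661 genes between WT and *mec-3(unk206)*. In the first, 2 members and 260 genes had an unadjusted p under 0.05, and DESeq2 called 0 members and 4 genes. In the second, 6 members and 1432 genes had one, led by *nlp-67* with a difference in log2 fold change of -1.75 ± 0.41 and *nlp-29* with 1.11 ± 0.30, and DESeq2 called these 2 members and 536 genes. Without *mbl-1(tm1563)* replicate 1, edgeR called *nlp-4*, *nlp-30* and *nlp-59* and 1353 genes. The kind of library differs between these backgrounds.

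**Figure D4:**
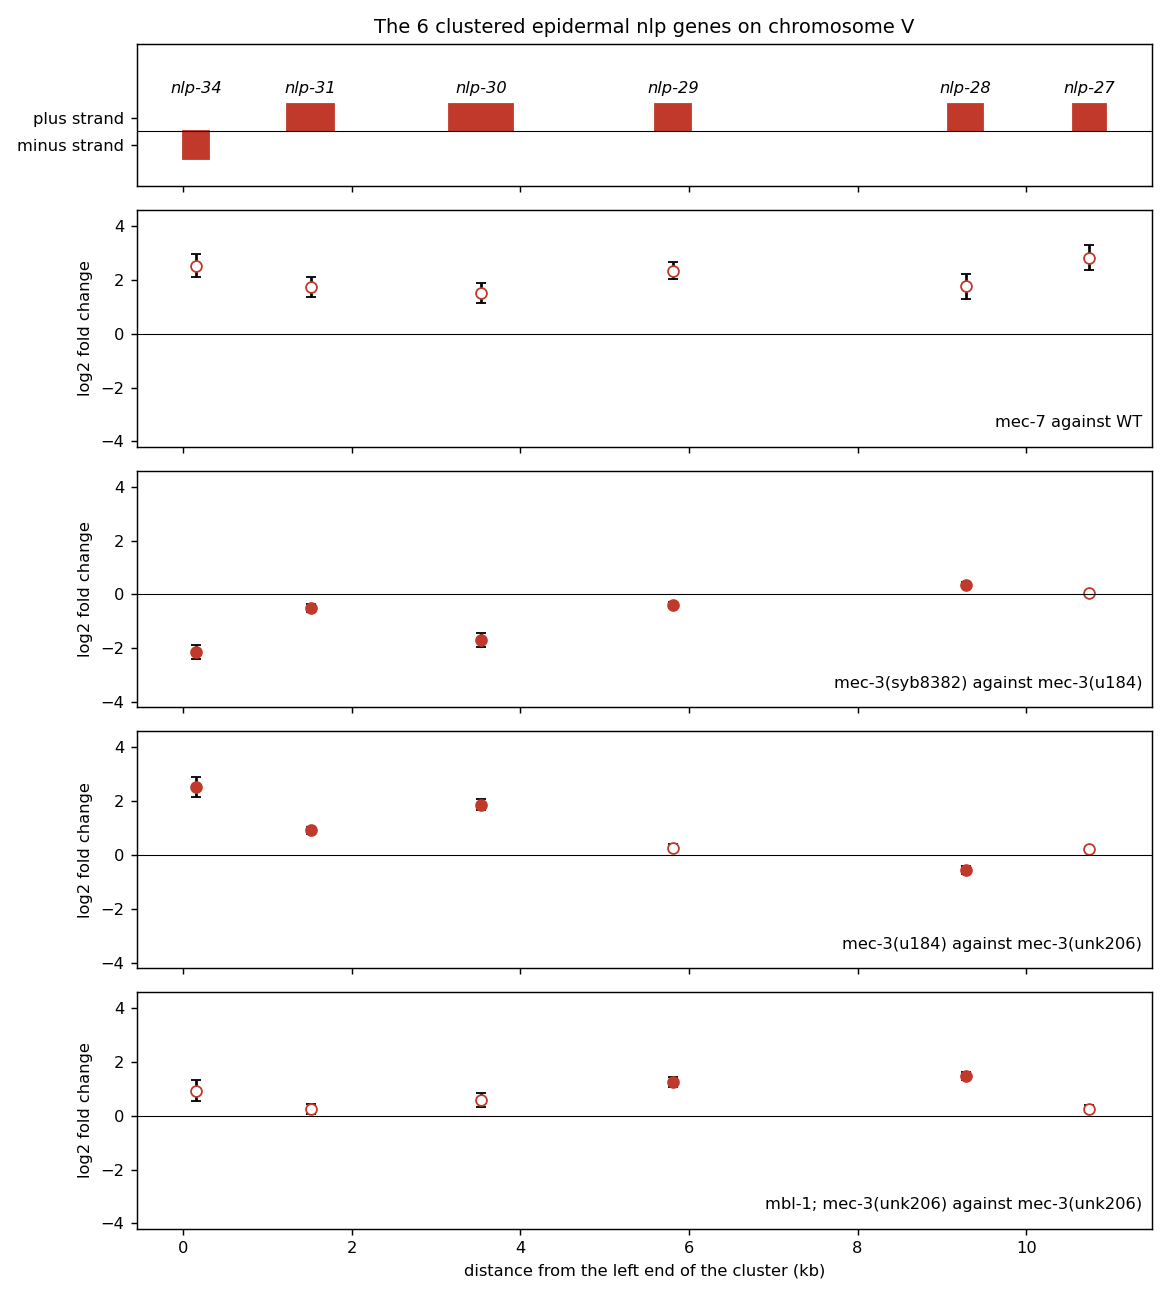
The 6 clustered epidermal genes by their distance in kb from the left end of the cluster (top), and below it the log2 fold change of each gene, with SE bars, in 4 comparisons, filled where the adjusted p was under 0.05. In the 2 comparisons with *mec-3(u184)*, *nlp-34* and *nlp-30* carry the largest values and *nlp-28* has the opposite sign, and in *mec-7(u278)* against WT all 6 genes lie above 1.5.

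The 2 strains with the uIs134 insertion were compared directly, which sets the short *mec-3d* form of *syb8382* against *mec-3(u184)*. Of 60 members tested 22 were lower in *mec-3(syb8382)* and 1 was higher, which is 38.3%, beside 46% of 14827 genes, with 22.7% lower and 23.3% higher. Without overlap 41 of the 60 members tested were lower and 3 of 60 were higher, beside 39% and 36.7% of all genes. The median of the members was -0.42 and that of all genes tested -0.04. *nlp-34* was at 6.93 and 6.99 CPM in *mec-3(u184)* and 2 and 1.14 CPM in *mec-3(syb8382)*. It fell with a log2 fold change of -2.15 ± 0.26 (adjusted p = 0.00171, edgeR), which is 4.44-fold. *nlp-30* fell from 12.9 and 9.41 CPM to 4.32 and 2.65 CPM, which is -1.68 ± 0.26 on the log2 scale (adjusted p = 0.0035, edgeR). *nlp-25* fell from 12.5 and 12.2 CPM to 6.14 and 4.44 CPM, which is -1.24 ± 0.17 on the log2 scale (adjusted p = 0.00257, edgeR). The libraries of all 23 members called did not overlap.

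Further falls were smaller. *nlp-20* fell by 1.12 on the log2 scale, *nlp-58* by 0.92, *nlp-13* by 0.73 and *nlp-36* by 0.50, and the others called lay between -0.94 and -0.32. In the epidermal group *nlp-33*, *nlp-31* and *nlp-29* fell by 0.68, 0.52 and 0.39 on the log2 scale. *nlp-28* was the 1 member that rose, from 15.7 and 16.4 CPM to 19.3 and 22.3 CPM, with a log2 fold change of 0.36 ± 0.11 (adjusted p = 0.0305, edgeR), and it was not called by DESeq2 or in 3 of 4 fits without 1 library. *nlp-69* did not pass, with 19 and 7 counts in *mec-3(u184)* and 17 and 12 counts in *mec-3(syb8382)*, overlapping libraries and a log2 fold change of 0.15 ± 0.51. The number of members called was 9 (3832 genes) without *mec-3(u184)* replicate 2, 14 (4341 genes) without *mec-3(u184)* replicate 1, 11 (5387 genes) without a filter on low counts and 15 (5011 genes) with DESeq2, in place of 23 (6825 genes), and *nlp-34*, *nlp-30*, *nlp-25*, *nlp-20*, *nlp-58* and *nlp-13* were called in each of these.

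Other lists changed in the same comparison. All 10 epidermal markers were lower, with a median of -1.80 and sums of 1712 and 1404 CPM in *mec-3(u184)* and 565 and 340 CPM in *mec-3(syb8382)*, and all 4 caenacins tested were lower, with *cnc-4* at -1.68 ± 0.13. Of 13 pan-neuronal markers 6 were lower and 2 higher, with a median of -0.32, and 23 of 29 major sperm protein genes were higher. Among the 11 processing genes 7 fell and 0 rose, among them *egl-3*, the main convertase of neuropeptides, with -0.50 ± 0.07, *egl-21*, the carboxypeptidase E, with -0.51 ± 0.06, and *sbt-1*, the 7B2 chaperone of EGL-3, with -0.61 ± 0.06. Of 8 dense-core vesicle genes 5 fell, among them *ida-1*, the IA-2 homolog, with -0.56 ± 0.08, and *unc-31*, the CAPS homolog, with -0.58 ± 0.15. Of 12 receptors 4 fell, among them *npr-12*, a receptor of NLP-29, with -0.62 ± 0.18. Beside these lists, 23.3% of all genes tested were higher and 22.7% lower. The part of the marker lists in the changes of the members was not tested.

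**Figure D5:**
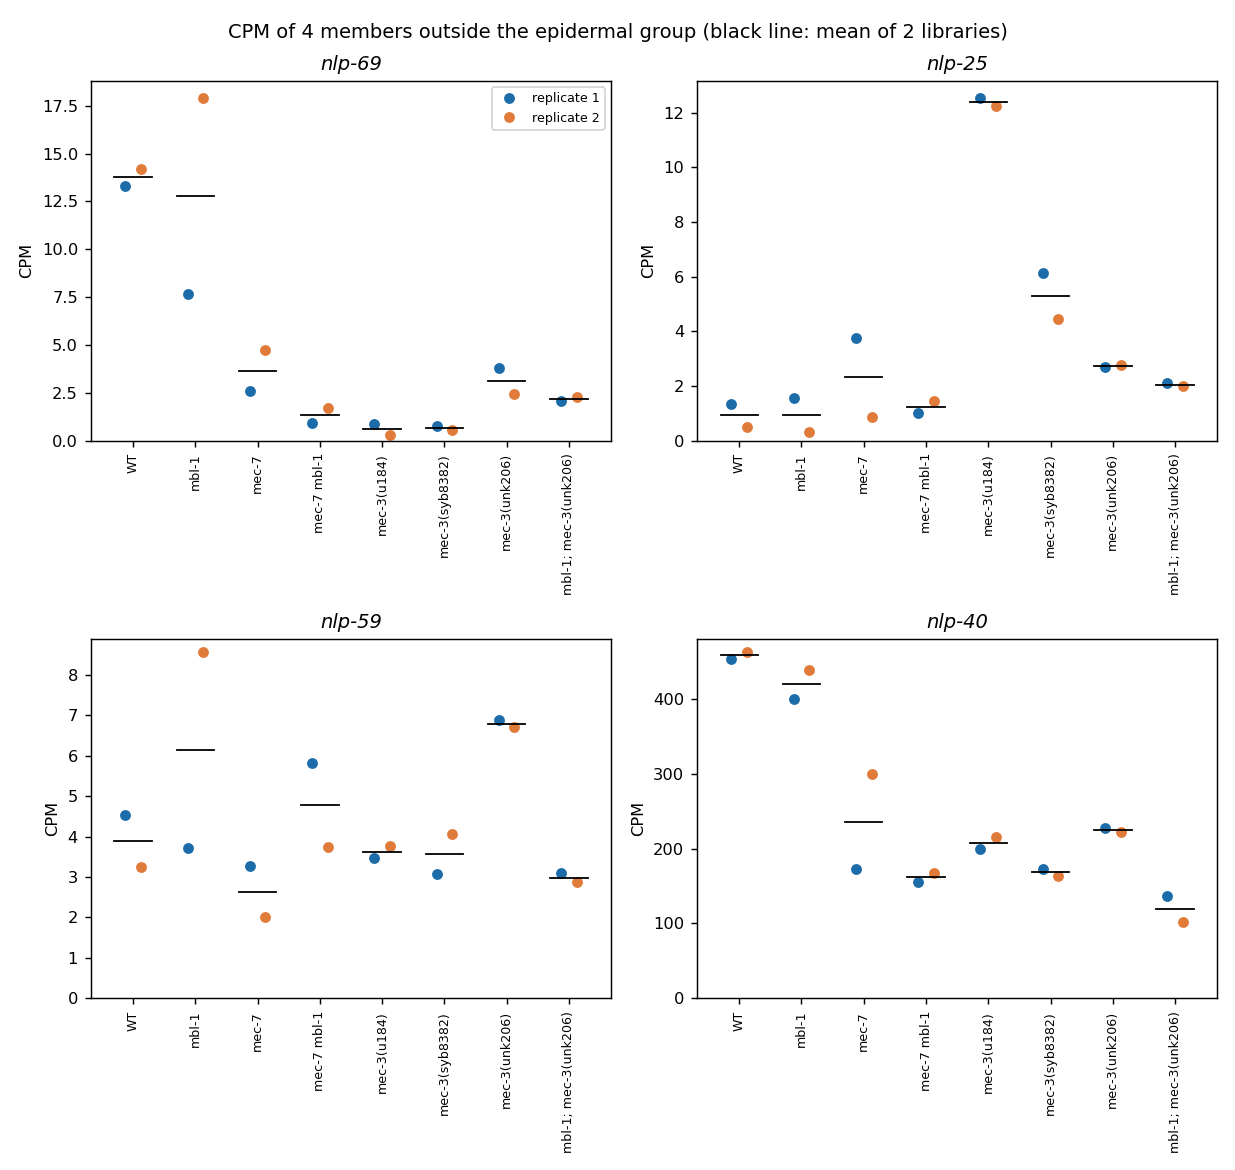
CPM of *nlp-69*, *nlp-25*, *nlp-59* and *nlp-40* in each library by strain, with a line at the mean of the 2 libraries. *nlp-69* lies at 13.3 and 14.2 CPM in WT and under 1 CPM in all 4 libraries of the uIs134 strains, and *nlp-25* is highest in *mec-3(u184)*.

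Both uIs134 strains were set against *mec-3(unk206)*. These comparisons and the *mbl-1* comparison above share the *mec-3(unk206)* libraries, and each also shares a strain with the direct comparison, so their values are not independent. In *mec-3(u184)*, 13 of 59 members were higher than in *mec-3(unk206)* and 3 were lower, which is 27.1%, beside 27.3% of 14977 genes, with 14.9% higher and 12.4% lower. The median of the members was 0.27 and that of all genes tested 0.00. Without overlap 32 of the 59 members tested were higher and 9 of 59 were lower, beside 32% and 35.1% of all genes. *nlp-69* was at 0.854 and 0.314 CPM in *mec-3(u184)* and 3.8 and 2.42 CPM in *mec-3(unk206)*, which are 19 and 7 counts against 88 and 61. It was lower by 5.21-fold, with a log2 fold change of -2.38 ± 0.41 (adjusted p = 0.0033, edgeR). In *mec-3(syb8382)* it was at 0.756 and 0.549 CPM, lower than in *mec-3(unk206)* by 4.74-fold, with a log2 fold change of -2.24 ± 0.35 (adjusted p = 0.00335, edgeR). *nlp-69* lies at V:20094253-20095008 on the minus strand (WBcel235) and ranks as number 39 of the 66 members by level per kb. It was named as a MEC-3-dependent gene with earlier results of these data known, so its calls are not an independent test of that name. Its libraries did not overlap in either comparison, in which allele and reporter insertion cannot be told apart. Both calls were kept in all 8 fits without 1 library and were lost in the 1 fit that shares its spread over 16 libraries, with adjusted p of 0.326 and 0.369 from edgeR, and at a minimum of 10 counts in every library *nlp-69* could not be tested in *mec-3(u184)*. TRN markers moved with *nlp-69*: 6 of 9 fell in *mec-3(u184)* and 8 of 9 in *mec-3(syb8382)*, beside 12.4% and 8.41% of all genes tested. Their medians were -2.64 and -1.81. The 9 markers include *mec-3* itself, the gene mutated in these strains, and the part of the markers in the result was not tested.

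Over all strains, as a description, *nlp-69* was highest in WT and *mbl-1(tm1563)*, next in *mec-7(u278)* at 2.59 and 4.73 CPM and *mec-3(unk206)* at 3.8 and 2.42 CPM, which overlap, then at 2.05 and 2.3 CPM with both *mbl-1(tm1563)* and *mec-3(unk206)*, in the *mec-7* double mutant at 0.911 and 1.72 CPM, and lowest in the uIs134 strains, which overlap. The summed TRN markers were 708 and 532 CPM in WT, 212 and 364 CPM in *mbl-1(tm1563)* and 178 and 357.5 CPM in *mec-7(u278)*. They were 39.8 and 81.2 CPM in the *mec-7* double mutant, 122 and 118 CPM in *mec-3(unk206)*, and between 48.2 and 65 CPM in the uIs134 strains. With both *mbl-1(tm1563)* and *mec-3(unk206)* they were 55.2 and 55.7 CPM, within the range of the uIs134 strains. The largest parts of that sum were *mec-12*, at 23.45 and 23.07 CPM, and *mec-7*, at 8.05 and 7.4 CPM. By gene, *mec-3*, *mec-4*, *mec-10*, *mec-17* and *mec-18* were there above all libraries of the uIs134 strains, as *nlp-69* was. *mec-1*, *mec-2*, *mec-7* and *mec-12* were not.

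Among the members higher in *mec-3(u184)* than in *mec-3(unk206)*, the largest were again of the epidermal cluster and *nlp-25*. *nlp-34* was at 6.93 and 6.99 CPM against 1.9 and 0.556 CPM, which is 2.54 ± 0.37 on the log2 scale (adjusted p = 0.00139, edgeR). *nlp-25* was at 12.5 and 12.2 CPM against 2.68 and 2.78 CPM, which is 2.19 ± 0.16 on the log2 scale (adjusted p = 6.12e-05, edgeR). *nlp-30* was at 12.9 and 9.41 CPM against 3.5 and 2.66 CPM, which is 1.87 ± 0.21 on the log2 scale (adjusted p = 0.000426, edgeR). *nlp-33*, *nlp-31*, *nlp-26* and *nlp-20* followed with 1.33, 0.92, 0.83 and 0.81. In the epidermal group 4 of 7 rose and *nlp-28* fell, at 15.7 and 16.4 CPM against 27.3 and 20.6 CPM, with -0.56 ± 0.15, and this call was lost without either *mec-3(u184)* library. *nlp-59* was the third member that was lower, at 3.46 and 3.76 CPM against 6.87 and 6.72 CPM, with -0.89 ± 0.18 (adjusted p = 0.00612, edgeR). Without *mec-3(unk206)* replicate 1, 28 members and 5737 genes were called, in place of 16 and 4086. All 10 epidermal markers were higher in *mec-3(u184)*, with a median of 1.74, as were all 4 caenacins tested, with *cnc-4* at 2.35 ± 0.31, and 4 of 11 processing genes, led by *egl-21* with 0.54 ± 0.11. Beside these lists, 14.9% of all genes tested were higher and 12.4% lower. The part of the epidermal markers in the result was not tested.

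The difference between *mec-3(syb8382)* and *mec-3(unk206)* was smaller, with 3 members higher and 4 lower of 59, which is 11.9%, beside 13.9% of 14775 genes, with 5.49% higher and 8.41% lower. Without overlap 12 of the 59 members tested were higher and 17 of 59 were lower, beside 30.1% and 30.7% of all genes. Epidermal markers did not pass in either direction here, with 0 of 10 called by edgeR, 0 at an unadjusted p under 0.05 and a median of -0.12. *nlp-26* was at 24.6 and 25.9 CPM in *mec-3(syb8382)* and 16.1 and 14.6 CPM in *mec-3(unk206)*, a log2 fold change of 0.71 ± 0.13 (adjusted p = 0.00822, edgeR). *nlp-25* was at 6.14 and 4.44 CPM against 2.68 and 2.78 CPM, which is 0.94 ± 0.23 on the log2 scale (adjusted p = 0.0252, edgeR). The genes *nlp-25* and *nlp-26* lie 5.04 kb apart on chromosome V. *nlp-33*, with 0.64 ± 0.19, was called with the main filter on low counts and not with either other filter. Lower were *nlp-69*, *nlp-67* with -0.98 ± 0.26, *nlp-59* with -0.94 ± 0.21 and *nlp-40* with -0.43 ± 0.12, which was at 173 and 163 CPM against 228 and 222 CPM. Of these 7 members only *nlp-26* and *nlp-69* were called in all 4 fits without 1 library, and without *mec-3(unk206)* replicate 2 the members called were *nlp-26*, *nlp-69* and *nlp-40*, beside 1189 genes in place of 2053. Of the intestinal markers 3 of 5 were lower, with a median of -0.67, and 3 of 5 body muscle markers, 4 of 6 vitellogenins and 10 of 29 major sperm protein genes were higher, with 1 of the last lower, and the part of these lists in the result was not tested. *nlp-38* did not pass in any of the 3 comparisons between *mec-3* alleles, at 3.19 and 4.3 CPM in *mec-3(u184)*, 4.09 and 2.47 CPM in *mec-3(syb8382)* and 3.59 and 3.78 CPM in *mec-3(unk206)*, which overlap.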

How the data were processed

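Whole-worm L4 RNA of 8 strains was sequenced in 2 libraries each. The authors aligned the reads with STAR 2.7.10 to WBcel235, per the labels, and deposited unnormalized counts per gene: an unstranded count, used here, and 1 per strand. Rows that name no gene were left out: 1.09% to 2.86% of reads were unmapped, 2.47% to 4.24% mapped to several places, 0.23% to 0.505% lay in no gene and 1.53% to 1.91% were ambiguous. The labels call all libraries strand-specific, which the counts of 4 strains do not bear out. Groups are the genotypes of the labels; the methods call the 2 libraries of a strain biological replicates. Counts were normalized by TMM, filtered with filterByExpr within each of 7 pairs of strains and tested with edgeR 4.0.16 (R 4.3.3, quasi-likelihood, Benjamini-Hochberg, threshold 0.05); interactions used 8 libraries. The SE is the log2 fold change over the root of the F statistic. Alternatives were DESeq2 1.42.0, RLE size factors, no filter, 10 counts in every library, 1 fit of 16 libraries, the replicate number as a block, the stranded column (*mec-3* strains), plain-total CPM and each library left out, where a lone library is taken to vary like the others. The scripts were also run on simulated counts, and no result rests on that run. Named are the epidermal genes, *nlp-69*, *nlp-38*, the 10 members of highest CPM per kb and, per comparison, up to 3 largest changes each way among called members without overlap, or else the 3 lowest unadjusted p; genes added beside them, such as *nlp-10*, *nlp-58* or *nlp-13*, were chosen after their values were seen. Members and lists were chosen with earlier results of these data known. Sequences were not used here.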

Additional observations from a re-analysis of the deposited data

How the results depend on the processing

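For 72 log2 fold changes of single genes, 760 values were recomputed under another setting. Of these 651 kept their direction and side of the threshold, 83 lost the call, 20 gained it and 6 reversed. Counts of calls are not in this tally and are given below. All reversals came from leaving out 1 library: *nlp-69* in *mbl-1(tm1563)* against WT spanned -0.92 to 0.57, *nlp-69* in *mec-3(syb8382)* against *mec-3(u184)* -0.40 to 1.04, *nlp-27* in the *mec-7(u278)* background -0.24 to 1.20 and *nlp-31* in the *mec-3(unk206)* background -0.022 to 0.47. In 1 fit of all 16 libraries, in which the spread, the filter (16074 genes tested) and the scaling changed together, the members called fell to 0 in all 4 comparisons among *mec-3* strains and were 1 (*nlp-29*) in *mec-7(u278)* against WT, and the genes called were 2, 2, 29, 16, 8, 17 and 5 in the order *mbl-1* loss in WT, in *mec-7* and in *mec-3(unk206)*, *mec-7* against WT, *syb8382* against *u184*, *u184* against *unk206* and *syb8382* against *unk206*. That fit also shifted the median of all genes by 0.14 for *mbl-1* loss in *mec-3(unk206)*, and the other settings moved it by at most 0.1; the shift was not computed with a library left out. The cause was not tested. DESeq2 called 20, 16 and 92 genes in the pairs with WT or *mec-7(u278)*, 15 members in *syb8382* against *u184*, 5 in *mec-7* against WT, and 4 and 536 genes and 2 members for the interactions. With no filter on low counts there were 11 members in *syb8382* against *u184*, and 6 members and 485 genes in *mec-7* against WT, where 10 counts in every library left 0 genes.

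Leaving out 1 library gave 0 members throughout in *mbl-1* against WT, 0 to 3 in the *mec-7(u278)* background (0 to 349 genes), 5 to 11 with *mec-3(unk206)* (4217 to 4360), 0 to 1 in *mec-7* against WT (0 to 193), 9 to 23 in *syb8382* against *u184* (3832 to 6951), 12 to 28 in *u184* against *unk206* (2085 to 5737), 3 to 5 in *syb8382* against *unk206* (1097 to 2319) and 0 to 3 for the second interaction (0 to 1353). The replicate number, which the labels do not give, was tried as a block: deviations of same-numbered libraries correlated between -0.52 and 0.38, and the replicate block gave 7, 18, 21 and 9 members in the 4 comparisons among *mec-3* strains, in place of 7, 23, 16 and 7, beside 4598, 5890, 4902 and 2989 genes in place of 5478, 6825, 4086 and 2053, and 0 genes for the second interaction in place of 3. The strand column gave 6, 22, 15 and 7 members beside 5440, 6857, 4004 and 2005 genes. CPM by plain totals was between 0.836 and 1.18 times the TMM value. Depth limits the 14 members under 1 CPM most; *nlp-69* has 7 to 19 counts in the uIs134 strains.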
